A study of Homo sapiens with 8 samples.

Results

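AMOT, AMOTL1, AMOTL2, YAP1, WWTR1, TEAD1, LATS1 and LATS2 are 8 genes of the Hippo pathway, and their mRNAs were examined for binding by IGF2BP1 in H1299 cells. Their binding sites were taken as every peak of the deposited lists that lay within 1 of these genes on its own strand, which gave 100 of 22311 peaks in DMSO-treated cells and 102 of 22123 peaks in AVJ16-treated cells. The genes were chosen with these peak lists in view, since AMOT carries a dense row of 3'UTR peaks, so its peak numbers and enrichments are given as a description, with no test. At least 1 peak was listed in 7 of the 8 genes in each list, and AMOT alone accounted for 46 peaks with DMSO and for 51 with AVJ16. Over all protein-coding genes 25.2% held a peak with DMSO and 22.6% with AVJ16. Because of how the 8 genes were chosen, their share is not a result.

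Hippo signaling is a kinase cascade that limits growth. The kinases LATS1 and LATS2 phosphorylate the coactivators YAP1 and WWTR1 (TAZ), which are then kept out of the nucleus, whereas unphosphorylated coactivators bind TEAD transcription factors and switch on growth genes. Angiomotins (AMOT, AMOTL1 and AMOTL2) are scaffold proteins of cell junctions that bind YAP1 and can hold it in the cytoplasm. IGF2BP1 is an RNA-binding protein that is known to protect many target mRNAs from decay, often through their 3'UTRs.

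H1299 cells come from a human non-small cell lung carcinoma and are labelled as wild type, and AVJ16 is a small molecule inhibitor of IGF2BP1. Cells were exposed for 24 h to 1.5 µM AVJ16 or to 0.01% DMSO and then crosslinked with UV light. They were prepared in batches from a single thaw of the line, and the batch of each replicate is not given in the sources used here. In eCLIP, fragments of RNA that stay attached to a protein pulled down with its antibody (IP) are sequenced, and a size-matched input (SMInput) that skipped the antibody serves as the background. For each treatment 2 IP and 2 SMInput libraries were made, 8 in all, and both replicates were merged into a single list of peaks. Each peak carries a log2 fold enrichment of IP over SMInput and a −log10 p of that enrichment. No value per replicate is in the lists, so none of the differences below could be set against a spread between replicates, and no difference between the treatments was tested. Library depth is unknown from these lists. A peak is listed only from a log2 fold enrichment of 3 (8-fold) and a −log10 p of 3, so a site missing from a list may lie just under either limit. Over whole lists the DMSO peaks had a median log2 fold enrichment of 3.63 and the AVJ16 peaks one of 3.61. RNA levels were not used here, so more binding per mRNA and more mRNA cannot be told apart, nor was the identity of the cells checked.

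The sites on which the results turn are printed as RNA, 5′ to 3′, each as the middle 30 nt of a peak. Coordinates are on GRCh38 (hg38). Capitals mark CAU, the short sequence best known for contact with IGF2BP1. The first pair are the most enriched AMOT peaks of each list, and the next is an AMOT site listed with AVJ16 alone. The others are the TEAD1 peak with the highest enrichment and the one whose enrichment was most lowered with AVJ16, the leading AMOTL1 and WWTR1 peaks with DMSO, the leading YAP1 peak of each list and the leading LATS1 peak with AVJ16.
AMOT, leading peak with DMSO, chrX:112775655-112775684, minus strand: aauaaaaaguagcuugagcuuucuuuuaaa
AMOT, leading peak with AVJ16, chrX:112775332-112775361, minus strand: auaucuguuagcuacacagucuccuauuau
AMOT, listed with AVJ16 alone, chrX:112775167-112775196, minus strand: uuccaagugcCAUcCAUCAUcaguaggaca
TEAD1, leading peak with DMSO, chr11:12940540-12940569, plus strand: auauuucuuccuguuucagaacuucuguuu
TEAD1, most negative difference, chr11:12940773-12940802, plus strand: cuuauuucggCAUauuuccucugggcuucu
AMOTL1, leading peak with DMSO and most negative difference, chr11:94873491-94873520, plus strand: cuagugucaacuguaugcaaacaguguggu
YAP1, leading peak with DMSO, chr11:102233036-102233065, plus strand: ugaaacucaaaCAUugcaaaaguggguggc
YAP1, leading peak with AVJ16, chr11:102230200-102230229, plus strand: uuuugggggcugggggaagugagccuguuu
WWTR1, leading peak with DMSO, chr3:149517891-149517920, minus strand: uaaaCAUCAUCAUuucaccccaaaauuuug
LATS1, leading peak with AVJ16, chr6:149660251-149660280, minus strand: caggugguccuuucagagcucagccugaaa
All 10 of these sites lie in 3'UTRs. The leading AMOT, TEAD1 and AMOTL1 stretches hold no CAU, whereas the WWTR1 stretch and the AMOT site listed with AVJ16 alone hold 3 each.

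AMOT (ENSG00000126016.17) lies on the minus strand of chromosome X, from 112774503 to 112840831, and its product is the founding angiomotin. Its 3'UTR runs from 112774877 to 112778566 and is 3690 nt long. Of the 46 peaks with DMSO this 3'UTR held 45, and of the 51 with AVJ16 it held 50, and the other peak of each list lay in the CDS, at a different place in each. The density was 12.2 peaks per kb of 3'UTR with DMSO and 13.6 with AVJ16. By number of 3'UTR peaks AMOT ranked 2nd of 4380 genes in the DMSO list and 6th of 3915 in the AVJ16 list, while the median bound gene held 3 peaks in all. Part of this count came from many short peaks side by side: the median AMOT peak was 32 nt with DMSO and 31 nt with AVJ16, against 67 nt and 60 nt over all peaks. Joined where they touched, the peaks formed 19 sites in each list.

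Measured by length, AMOT peaks covered 44.8% of the 3'UTR with DMSO and 45.6% with AVJ16. The median over the 4377 genes with a DMSO peak in the 3'UTR was 10.4%. By this measure AMOT ranked only 239th, so many 3'UTRs were covered more fully. The cover was uneven, and was higher toward the 3′ end. In 3 equal parts from the stop codon on, 24.1%, 44.2% and 66.1% of the AMOT 3'UTR lay under DMSO peaks, and 20.6%, 46.8% and 69.4% under AVJ16 peaks. Pooled over the 3559 3'UTRs of at least 1000 nt with a DMSO peak, the order ran the other way, with 11.9%, 8.66% and 7.53% covered in that list.

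**Figure D1:**
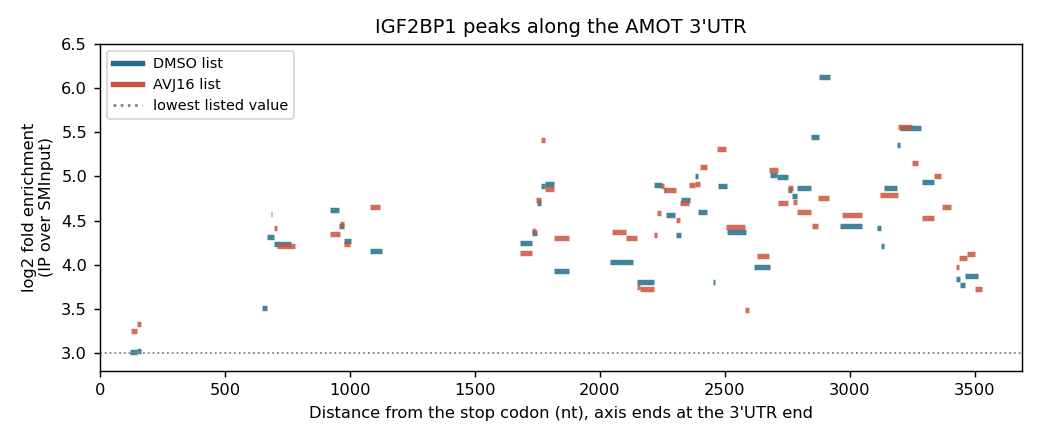
Each bar is an IGF2BP1 peak in the AMOT 3'UTR, placed by its distance from the stop codon in nt (x axis) and by its log2 fold enrichment of IP over SMInput (y axis), with DMSO peaks in blue and AVJ16 peaks in red. Bars of both lists lie close together over most of the 3'UTR, while the highest DMSO bar, at 6.13 and 2875 nt to 2919 nt, has its AVJ16 counterpart at 4.76.

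AMOT peaks were also strongly enriched. The log2 fold enrichment ranged from 3.01 to 6.13 with a median of 4.43 in the DMSO list, and from 3.25 to 5.56 with a median of 4.53 in the AVJ16 list. Medians over all 3'UTR peaks were 3.71 and 3.67. A value of at least 4 was reached by 35 of the 46 AMOT peaks with DMSO and by 43 of the 51 with AVJ16. Of all listed peaks 29.4% reached it with DMSO and 27.4% with AVJ16. The −log10 p, which rises with the number of reads as well as with enrichment, stops at 400 in both lists. With DMSO 22 AMOT peaks were at that limit, 3.25% of all 677 such peaks, and with AVJ16 12 were, 1.50% of 799. The lowest −log10 p of an AMOT peak was 39.4 with DMSO and 28.2 with AVJ16, so none stood near the −log10 p of 3 needed for listing.

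Binding began 120 nt after the stop codon with a weak pair of peaks, which had log2 fold enrichments of 3.01 and 3.02 with DMSO and of 3.25 and 3.33 with AVJ16. Further along, a peak at 699 nt to 766 nt had a −log10 p of 400 in both lists, and its enrichment was 4.24 with DMSO and 4.21 with AVJ16. A peak at 1082 nt to 1130 nt stood alone, with 4.16 and 4.65. Between 1681 nt and 1874 nt lay a site of 12 peaks when the lists were joined, in which a peak from 1764 nt to 1779 nt had 4.89 with DMSO and 5.41 with AVJ16. The longest joined site spanned 388 nt, from 2042 nt to 2429 nt, and held 22 peaks of both lists. Within it the enrichments stayed between 3.73 and 5.10.

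The site with the highest DMSO enrichment followed, from 2616 nt to 2919 nt, with 16 peaks of both lists over 304 nt. At its 3′ end lay the leading AMOT peak, from 2875 nt to 2919 nt, which had a log2 fold enrichment of 6.13 in the DMSO list and 4.76 in the AVJ16 list, and a −log10 p of 400 and 79.3. The peak next to it, from 2845 nt to 2874 nt, had 5.45 with DMSO and 4.44 with AVJ16. These neighbours gave the most negative differences in AMOT, −1.37 and −1.01 on the log2 scale. The remaining shared peaks of the same site differed by at most 0.30 in size. A further site from 3110 nt to 3285 nt held the leading AVJ16 peak, which had an enrichment of 5.56, and the DMSO peak over it, from 3199 nt to 3285 nt, had 5.54. The last peaks ended 3528 nt after the stop codon, close to the 3′ end of the 3'UTR.

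Of the 46 AMOT peaks in the DMSO list, 43 overlapped an AVJ16 peak by at least 1 nt, a share of 93.5% (95% Wilson interval 82.5% to 97.8%, for counting error only). From the AVJ16 side, 49 of 51 peaks overlapped a DMSO peak, or 96.1%. Over the whole lists these shares were 66.2% and 70.8%, and 70.5% of all DMSO peaks in 3'UTRs were shared. Every AMOT peak had a −log10 p above 20, and of all DMSO peaks with a −log10 p of at least 20, 90.6% were shared. The 3 AMOT peaks listed with DMSO alone were a CDS peak (112779066 to 112779112, enrichment 3.02) and 3'UTR peaks at 649 nt to 668 nt (3.52) and at 2453 nt to 2460 nt (3.81). The 2 listed with AVJ16 alone were a CDS peak (112822422 to 112822462, enrichment 3.27) and a 3'UTR peak at 3369 nt to 3402 nt (4.65, −log10 p of 42.8). This last site holds the CAU-rich stretch printed above.

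At the 43 shared AMOT peaks the enrichments of both lists lay close to each other. The median difference, AVJ16 minus DMSO, was 0.02 on the log2 scale (95% interval −0.04 to 0.17 from order statistics), with 17 peaks lower and 26 higher with AVJ16. Over all 14759 shared peaks the median was −0.06 (−0.07 to −0.05). Differences in AMOT ran from −1.37 to 0.58. Beyond 0.5 in size, 3 AMOT peaks were lower and 3 were higher with AVJ16, and 37 lay within 0.5. The study used the same limit, but on clusters that also passed an interaction test on read counts of each sample. That test was not run here, so these counts cannot be compared with its differentially bound peaks. Over all shared peaks 20.1% were lower and 12.6% higher by more than 0.5. The most positive difference, at 3126 nt to 3136 nt (4.21 and 4.79), and 1 of the negative ones, at 3188 nt to 3198 nt (5.36 and 4.79), were read against the same AVJ16 peak, which spans 4 DMSO peaks, so both depend on where the peak ends were set.

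The −log10 p of AMOT peaks gave a less even picture than their enrichment. Among the 43 shared peaks, 11 were at the limit of 400 in both lists, 11 with DMSO alone and 2 with AVJ16 alone. The 2 with AVJ16 alone were read against the same AVJ16 peak, which spans 4 DMSO peaks. That peak also enters pairs at the limit in both lists. Of the 19 that were under the limit in both lists, 18 had a lower −log10 p with AVJ16, with medians of 74.4 and 54.5. Over all shared pairs under the limit, 51.6% were lower with AVJ16. The number of reads behind each peak is not in the lists, so its part in this difference was not tested.

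AMOTL1 and AMOTL2 encode the remaining angiomotins. AMOTL1 (ENSG00000166025.18, chromosome 11, 94706431 to 94876748, plus strand) has a 3'UTR of 5953 nt, which held all of its 13 DMSO and 11 AVJ16 peaks. They covered 16.8% of it with DMSO and 15.5% with AVJ16, mostly in 3 groups that began 2489 nt, 3397 nt and 5036 nt from the stop codon. The median enrichment was 3.63 with DMSO (range 3.21 to 4.68) and 3.30 with AVJ16 (3.09 to 4.27), so these peaks were weaker than those of AMOT. Of the 13 DMSO peaks 12 were shared, with a median difference of −0.27 (interval −0.62 to 0.05), and 4 were lower and 1 higher by more than 0.5. Those shares over all shared peaks were 20.1% and 12.6%. The 12 peaks were read against 9 AVJ16 peaks. The largest differences of either sign were neighbours: the leading peak, at 2688 nt to 2734 nt, had 4.68 with DMSO and 3.10 with AVJ16, whereas the peak at 2545 nt to 2667 nt had 3.21 and 4.27. A peak at 5189 nt to 5255 nt had 4.52 with DMSO and 3.53 with AVJ16. The DMSO peak next to it, at 5256 nt to 5344 nt (3.50), was read against the same AVJ16 peak. Likewise the peak at 2910 nt to 2970 nt (3.83 and 3.30) shared its AVJ16 peak with a DMSO peak at 2735 nt to 2869 nt (3.25). Both of these negative differences thus depend on where the peak ends were set. AMOTL2 (ENSG00000114019.15, chromosome 3, 134355347 to 134375479, minus strand), also known as a transcriptional target of YAP1, had no peak in either list.

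YAP1 (ENSG00000137693.14, chromosome 11, 102110447 to 102233424, plus strand) encodes a coactivator at the end of the pathway. Its 3'UTR of 3484 nt held 10 peaks in each list, and all 10 were shared in both directions. They lay in groups at either end of the 3'UTR, from 11 nt to 578 nt and from 2434 nt on, with 1855 nt between them in which neither list held a peak. Cover was 17.6% with DMSO and 18.8% with AVJ16. Enrichments ran from 3.02 to 4.61 with a median of 3.63 with DMSO, and from 3.22 to 4.54 with a median of 3.73 with AVJ16. The median difference was −0.12 (interval −0.54 to 0.49), with 2 peaks lower, 1 higher and 7 within 0.5. Of all shared peaks 20.1% were lower and 12.6% higher. The leading peak was not the same in both lists: with DMSO it lay at 3077 nt to 3145 nt, where the enrichment was 4.61 with DMSO and 4.06 with AVJ16, and with AVJ16 it lay at 248 nt to 301 nt, with an enrichment of 4.54, over a DMSO peak at 245 nt to 300 nt with 3.55.

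WWTR1 (ENSG00000018408.15, chromosome 3, 149517235 to 149736714, minus strand) encodes TAZ, the partner of YAP1. Its 3'UTR of 3570 nt held all of its peaks, 4 with DMSO and 2 with AVJ16. The DMSO peaks had enrichments of 3.26, 3.86, 3.41 and 3.22 in order from the stop codon. A single one was shared, at 2976 nt to 3030 nt, with 3.41 and 3.15. Its leading DMSO peak, at 2856 nt to 2942 nt, had no AVJ16 partner, and the AVJ16 peak at 609 nt to 725 nt (3.20) had no DMSO partner.

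**Figure D2:**
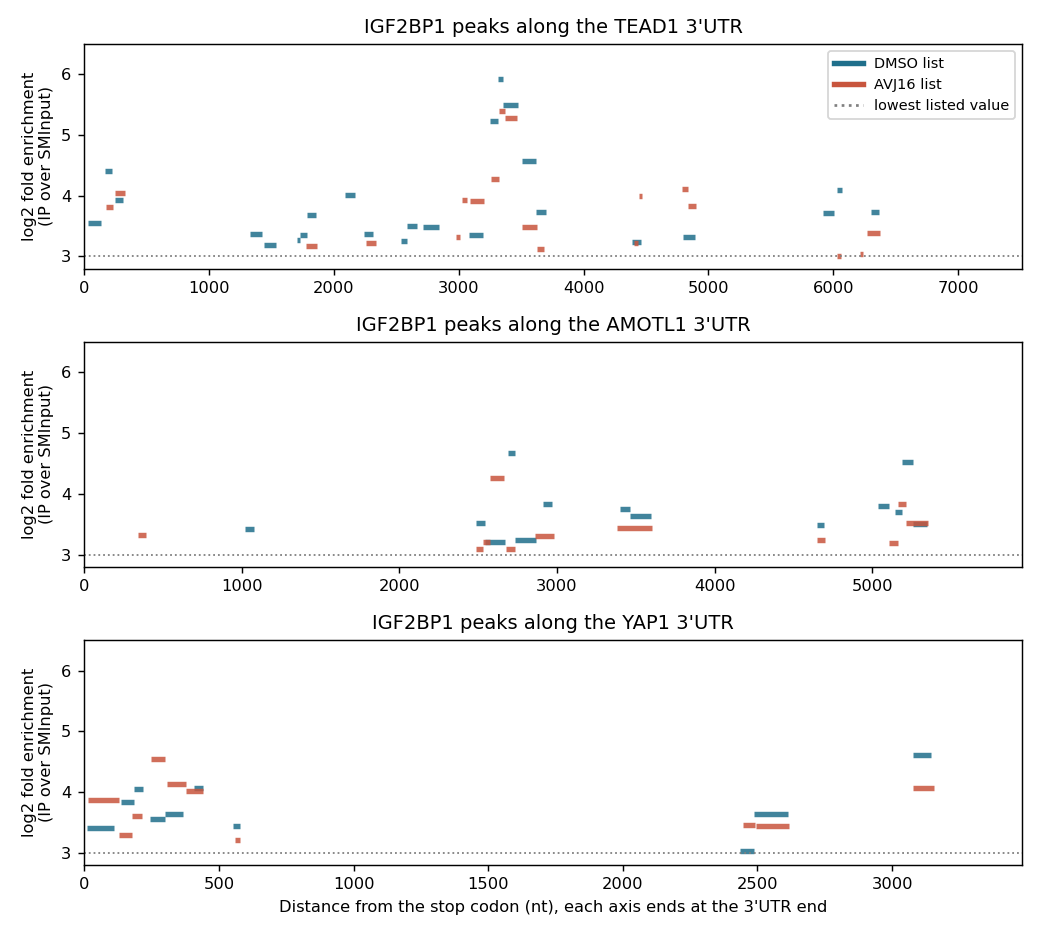
Each bar is an IGF2BP1 peak in the 3'UTR of TEAD1, AMOTL1 or YAP1, placed by distance from the stop codon in nt (x axis) and log2 fold enrichment of IP over SMInput (y axis), with DMSO peaks in blue and AVJ16 peaks in red. TEAD1 peaks above 5 stand in a single block between 3254 nt and 3478 nt, and most other bars of the 3 genes lie between 3 and 4.

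TEAD1 (ENSG00000187079.20, chromosome 11, 12674421 to 12944737, plus strand) encodes a transcription factor through which YAP1 and WWTR1 reach DNA. After AMOT it held the most peaks of the 8 genes, 24 with DMSO and 19 with AVJ16, and each lay in its 3'UTR of 7515 nt. Joined, they made 18 sites with DMSO and 15 with AVJ16, and cover was 24.9% and 16.0%. The median enrichment was 3.62 with DMSO (3.18 to 5.93) and 3.82 with AVJ16 (3.01 to 5.39). Its strongest binding lay in a block from 3254 nt to 3478 nt, where 3 adjoining peaks had enrichments of 5.23, 5.93 and 5.49 with DMSO and of 4.27, 5.39 and 5.28 with AVJ16. The −log10 p was at most 53.3 with DMSO and 38.1 with AVJ16, below most AMOT peaks.

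Of the 24 TEAD1 peaks with DMSO, 15 were shared, or 62.5% (interval 42.7% to 78.8%), and 16 of the 19 AVJ16 peaks were, or 84.2%. The first share is near the 70.5% of all DMSO peaks in 3'UTRs. At 12 of the 15 shared peaks the enrichment was lower with AVJ16, and the median difference was −0.34 (interval −0.60 to −0.01). By more than 0.5, 7 were lower and 2 were higher. Over all shared peaks the median was −0.06, and 20.1% were lower and 12.6% higher. The interval treats neighbouring TEAD1 peaks as independent, although 2 of them were read against the same AVJ16 peak. The TEAD1 difference was not put through the alternative settings given at the end. The most negative difference was at 3511 nt to 3621 nt, with 4.58 and 3.49, and the peak at 6030 nt to 6073 nt had 4.09 and 3.01. The most positive was at 3081 nt to 3195 nt, with 3.36 and 3.92. The 9 peaks listed with DMSO alone had enrichments from 3.18 to 4.02, and 6 of them lay between 1332 nt and 2665 nt. With AVJ16 alone there were peaks at 2980 nt (3.32), 3023 nt (3.93) and 6212 nt (3.03).

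The kinases LATS1 and LATS2 had few peaks. LATS1 (ENSG00000131023.13, chromosome 6, 149658153 to 149718105, minus strand) had 2 with DMSO, 1 in the CDS and 1 in the 3'UTR, and 7 with AVJ16, 4 in the CDS and 3 in the 3'UTR. The CDS peak from 149684111 to 149684215 had an enrichment of 3.33 with DMSO and 3.46 with AVJ16. The 3'UTR peak at 1922 nt to 2046 nt had 3.06 and 4.03. Of the 4 AVJ16 peaks without a DMSO partner, the one at 1447 nt to 1479 nt of the 3'UTR had the highest enrichment in the gene, 4.60, with a −log10 p of 9.60, and the one at 2660 nt to 2731 nt had 3.00. LATS2 (ENSG00000150457.9, chromosome 13, 20973036 to 21061586, minus strand) was bound in its 3'UTR, at 1 peak with DMSO and at 2 with AVJ16. The shared peak, at 995 nt to 1143 nt, had 3.20 and 3.18, and the AVJ16 peak at 1225 nt to 1250 nt had 3.45.

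Taking the 8 genes as a group, 84 of the 100 DMSO peaks were shared (84.0%, interval 75.6% to 89.9%), as were 90 of the 102 AVJ16 peaks (88.2%), beside 66.2% and 70.8% over the whole lists. The median difference at the shared peaks was −0.03, with 16 lower, 8 higher and 60 within 0.5, and these counts are near the 20.1% lower and 12.6% higher of all shared peaks. AMOT supplied 43 of these 84 peaks. In the 7 genes without it, 41 of 54 DMSO peaks were shared, the median difference was −0.21 (interval −0.45 to −0.01), and 13 were lower, 5 higher and 23 within 0.5. The correlation of the enrichments of both lists was 0.78 in AMOT (43 peaks), 0.56 in the 7 genes without it and 0.59 over all 14759 shared peaks. It varied between genes, with 0.81 in TEAD1 (15 peaks), 0.26 in YAP1 (10 peaks) and −0.34 in AMOTL1 (12 peaks). The difference between the lists was more negative at peaks with higher DMSO values. Its correlation with the DMSO enrichment was −0.63 in AMOT and −0.50 over all shared peaks, and part of this arises because the DMSO value enters both sides.

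**Figure D3:**
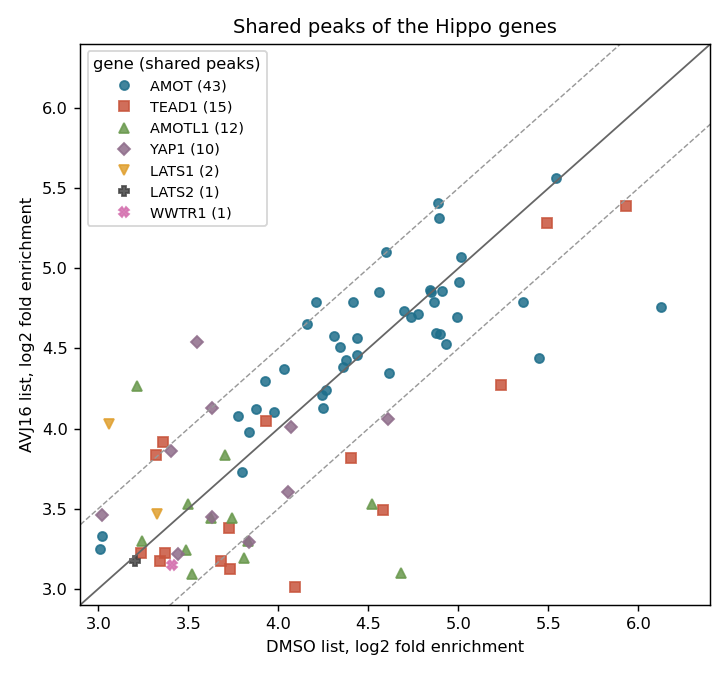
Each point is a shared peak of the Hippo genes, with its log2 fold enrichment in the DMSO list (x axis) and in the AVJ16 list (y axis), the solid line marking equal values and the dashed lines a difference of 0.5. Of the 43 AMOT points 37 lie between the dashed lines, against 6 of the 15 TEAD1 points.

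The 4 genes whose 3'UTR binding was most like that of AMOT, by number of DMSO peaks and share of the 3'UTR covered over 4377 genes, were DESI2, SCARB2, TMBIM6 and FAF2. DESI2 had 33 3'UTR peaks with DMSO and 31 with AVJ16, covering 44.2% and 43.9%. Its 32 shared peaks had a median difference of −0.44, with 13 lower and 0 higher by more than 0.5. Those shares over all shared peaks were 20.1% and 12.6%. SCARB2 had 20 and 25 peaks and a median difference of 0.05. TMBIM6 had 19 and 42 peaks, with cover of 45.4% and 60.9% and a median difference of 0.16. FAF2 had 25 and 34 peaks and a median difference of 0.04. Like cover with DMSO thus went with differences of either sign.

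Sequence under the peaks was compared with the rest of the same 3'UTRs. In AMOT, CAU occurred 51 times in the 1815 nt under a peak of either list, or 28.1 per kb, and 27 times in the other 1875 nt, or 14.4 per kb. Over all 4850 bound genes the densities were 21.2 and 16.8 per kb. The difference was smaller in TEAD1 (19.6 against 16.2 per kb) and YAP1 (17.3 against 15.0), and AMOTL1 had 27.0 against 18.7. In LATS2, with only 175 nt under peaks, the order was the reverse, 17.1 against 19.3 per kb. C was richer under peaks in AMOT (19.7% against 16.5%), TEAD1 (24.9% against 19.1%) and YAP1 (21.5% against 13.7%), and over all bound genes (23.4% against 19.8%).

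Short motifs were counted on the transcribed strand in 3'UTR peaks widened by 25 nt on each side. CAU was found in 87.8% of 98 such DMSO peaks of the 8 genes and in 84.5% of 97 AVJ16 peaks, against 89.9% and 88.8% over all 3'UTR peaks. UCCAG was found in 21.4% (interval 14.5% to 30.5%) and 18.6% (12.1% to 27.4%), against 16.1% and 15.5%. UCAUUC was found in 2.04% and 1.03%, against 6.81% and 6.64%, and in 0 of 45 AMOT peaks with DMSO. The AMOT 3'UTR holds no UCAUUC, under peaks or elsewhere, so its peaks could not hold it. In the other 7 genes the shares were 3.77% and 2.13%. For the cores of the m6A consensus, GGACU was present in 4.08% and 5.15%, against 8.93% and 8.56%. Of AMOT peaks alone 8.89% and 8% held GGACU, and of peaks in the other 7 genes 0% and 2.13%. UGGAC, which overlaps GGACU, was present in 4.08% and 6.19%, against 9.32% and 9.39%. Shares per peak also depend on peak length, and AMOT peaks are shorter than most. ACACCC was found in 5.10% and 1.03%, against 2.53% and 2.50%. UUUCCGAA was absent from the member peaks and was rare over all 3'UTR peaks, at 0.0421% and 0.0362%. AMOT peaks adjoin each other, so widened peaks share bases and are not independent.

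Beyond these genes, 63 further genes of the pathway in 5 lists were examined. A peak was present in 33 of the 63 with DMSO and in 30 with AVJ16, in 26 with both and in 26 with neither. Over all protein-coding genes 25.2% had a peak with DMSO and 22.6% with AVJ16, a background that includes genes not expressed in these cells. The 63 genes held 194 peaks with DMSO and 220 with AVJ16. Of 137 shared peaks 27 were lower and 15 higher with AVJ16 by more than 0.5, near the 20.1% and 12.6% of all shared peaks.

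Of the 9 genes of the core kinase cassette, 7 were bound with DMSO and 5 with AVJ16. MOB1A, an adaptor that activates the LATS kinases, had 10 peaks with DMSO and 7 with AVJ16, and its highest enrichment was 4.63 with DMSO and 3.86 with AVJ16. SAV1, the scaffold of the upstream kinases STK3 and STK4, had 3 and 6 peaks, all in the CDS. STK4 had 3 peaks and STK3 1 peak with DMSO, and neither had any with AVJ16. The TAO kinases TAOK1 and TAOK3 had 7 and 3 peaks with DMSO and 7 and 1 with AVJ16, and MAP4K4 had 2 and 3.

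Among 16 upstream regulators, 10 were bound with DMSO and 9 with AVJ16. PTPN14, a phosphatase that binds YAP1, had the most DMSO peaks of the 63 genes, 27 with DMSO and 30 with AVJ16. Its highest enrichment was 5.89 with DMSO and 5.42 with AVJ16, not necessarily at the same peak. Of its 19 shared peaks 6 were lower and 5 higher by more than 0.5, beside 20.1% and 12.6% of all shared peaks. The atypical cadherins FAT1 and FAT4 were bound mainly in the CDS, with 22 and 4 peaks with DMSO and 33 and 10 with AVJ16. STRN, a subunit of a phosphatase complex that opposes the pathway, had 12 and 9 peaks, and its relative STRN4 had 5 and 2. NF2, which encodes merlin, had 4 and 2, and FRMD6 had 1 and 4.

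Partners of the angiomotins numbered 10, of which 6 were bound with DMSO and 7 with AVJ16. NEDD4, a ubiquitin ligase of angiomotins, had 8 and 7 peaks, all of them in the 3'UTR. All 8 of its DMSO peaks were shared, with a median difference of −0.67, and 5 were lower and 0 higher by more than 0.5. Of all shared peaks 20.1% were lower and 12.6% higher. The list as a whole, NEDD4 included, had 27 shared peaks, of which 8 were lower and 1 higher. The tankyrases TNKS and TNKS2, which mark angiomotins for turnover, had 6 and 10 peaks with DMSO and 5 and 11 with AVJ16. ARHGAP17 had 7 and 5, and the polarity scaffold PATJ had 3 and 2. PALS1 and NEDD4L had 1 peak each with AVJ16 and none with DMSO, and MAGI1 had 1 with DMSO and none with AVJ16.

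Of the 9 transcription partners, 3 were bound with DMSO and 1 with AVJ16, beside 25.2% and 22.6% of all protein-coding genes. VGLL4, which competes with YAP1 for TEAD factors, had 7 and 6 peaks, and TEAD2 and RUNX2 had 1 peak each with DMSO and none with AVJ16. TEAD3 and TEAD4 had no peak in either list.

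Target genes of YAP1 and WWTR1 were the list with the largest difference in peak number, 40 with DMSO and 63 with AVJ16, although 7 of the 19 genes were bound with DMSO and 8 with AVJ16. NT5E, an ectonucleotidase, had 9 peaks with DMSO and 21 with AVJ16, each of them in the 3'UTR. Its 9 shared peaks had a median difference of 0.45, with 4 higher and 0 lower by more than 0.5. Those shares over all shared peaks were 12.6% and 20.1%. AXL, a receptor tyrosine kinase, had 13 peaks with DMSO and 19 with AVJ16, and at its 13 shared peaks the median difference was 0.02, with none beyond 0.5. ASAP1 had 8 and 7 peaks, CRIM1 5 and 7, and ARHGEF17 2 and 3. CCN2, a common reporter of YAP1 activity, had 2 peaks with DMSO and 3 with AVJ16, with leading enrichments of 4.58 and 4.70. FOXF2 had 0 and 2 peaks. CCN1 and ANKRD1, also common reporters, had no peak in either list.

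**Figure D4:**
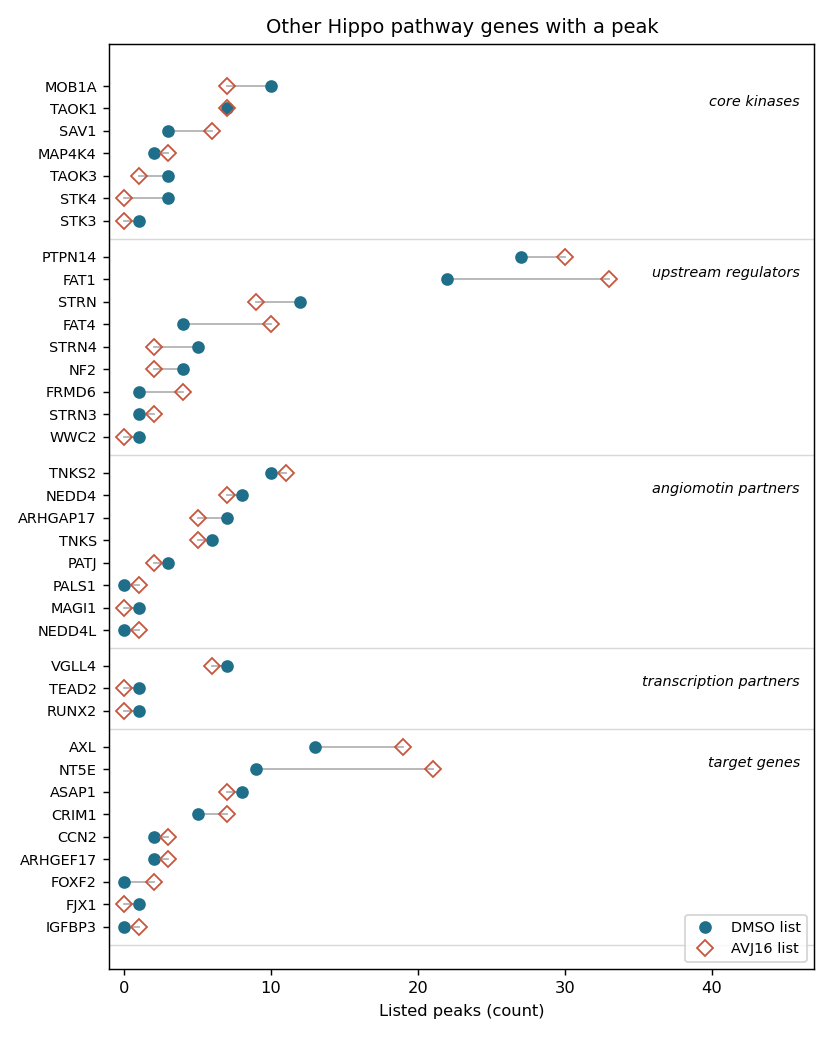
Number of listed IGF2BP1 peaks (x axis) in the other Hippo pathway genes with a peak, 1 of which is not shown, with filled circles for the DMSO list and open diamonds for the AVJ16 list, grouped by role. PTPN14 and FAT1 hold the most peaks, and NT5E has 9 with DMSO and 21 with AVJ16.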

How the data were processed

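IGF2BP1 eCLIP comprised 2 IP and 2 SMInput libraries of H1299 cells for each of DMSO and AVJ16, grouped as labelled. The authors used cutadapt for adapters, set aside reads of repeats, aligned the rest by STAR, dropped duplicate reads and ran CLIPper on the second read. Peaks were then normalized to the paired SMInput. File names point to IDR merging of both replicates, a step the Methods do not describe. The −log10 p-value of each peak was deposited as computed by the authors and stops at 400. The log2 fold enrichment of IP over SMInput was likewise computed by the authors, separately in each list. The lists begin at a log2 value of 3, the limit given in the paper's Results, while its Methods give a fold enrichment of 3. The build is hg38 per the submitters' processing notes, and all peaks fit its chromosomes. With GENCODE release 44, which is later than the release the Methods name, 92.2% of DMSO peaks overlapped a CDS or UTR on the same strand and 1.98% on the opposite strand.

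Each peak was given to protein-coding genes first and to regions in the order CDS (stop codon included), 3'UTR, 5'UTR, exon of a noncoding gene, intron up to 500 nt from an exon, and intron farther away. No other gene on the same strand overlapped the peaks of the 8 genes. 3'UTR positions refer to the canonical transcript. The partner of a DMSO peak was the AVJ16 peak with the longest overlap. An AVJ16 peak could be the partner of several DMSO peaks, and the ends of paired peaks differ. The 8 genes, the pathway lists and the motifs were chosen with earlier results of these data known, and UCAUUC had led an earlier motif count on these lists. The named genes are the 8 members with their leading, lost and most changed peaks, at most 8 bound genes with the most peaks of each pathway list, and the 4 genes most like AMOT by the rank sum of their distances in DMSO 3'UTR peaks and cover. Genes with no peak that are named (TEAD3, TEAD4, CCN1 and ANKRD1), the CAU density, base composition and cover in 3 equal parts were chosen after values were seen. Shares have 95% Wilson intervals and medians have order-statistic intervals, which cover counting error only. Both treat neighbouring peaks of a gene as independent, which they are not. Alternatives were higher thresholds, joined peaks, a stricter overlap, another limit for a change, centring and peaks not widened for motifs. Python 3.11.15, numpy 2.4.6, scipy 1.17.1, pysam 0.24.0, matplotlib 3.10.9 and samtools 1.23.1 were used. Assignment, pairing and joining were tested on simulated intervals, whereas motif counts were not tested in this way. The values of 1 upstream regulator enter the counts of the pathway lists but are not reported here. RNA-seq and proteomics were not analysed here.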

Additional observations from a re-analysis of the deposited data

How the results depend on the processing

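Of 72 values under alternative settings, 50 stayed within the tolerance set for them and 22 moved. A change of sign was not scored separately. For shared peaks and differences the settings were applied to AMOT and to the 8 genes together. They were not applied to TEAD1 or to the 7 genes without AMOT. Joining of touching peaks left 19 AMOT sites in each list, and 60 sites with DMSO and 57 with AVJ16 over the 8 genes. With a threshold of 4 on the log2 fold enrichment there were 47 peaks with DMSO and 55 with AVJ16, and 100% of the AMOT peaks were then shared. A −log10 p of at least 20 left 57 and 62 peaks, of which 91.2% of the DMSO peaks were shared, with 6 lower and 3 higher. An overlap of 50% of both peaks lowered the shared part to 71% of the DMSO peaks. With a limit of 1 in place of 0.5, 0 AMOT peaks were higher, and over the 8 genes 5 were lower and 1 higher. Without widening, UCCAG was found in 11.2% of DMSO and 10.3% of AVJ16 peaks, CAU in 60.2% and 55.7% (against 72.6% and 68.7% of all 3'UTR peaks, and 48.9% and 46% of the shorter AMOT peaks), ACACCC in 2.04% of DMSO peaks and GGACU in 2.06% of AVJ16 peaks. The median difference over the 8 genes was −0.03, but 0.03 after centring and 0.02 where the −log10 p reached 20, so it has no settled sign. Joining, stricter thresholds and unwidened peaks count fewer or shorter features by construction.

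No paired analysis was possible because each list merges both replicates of a treatment, and for the same reason none was left out. A peak close to a threshold enters or leaves a list with a small difference, so peak numbers in WWTR1, LATS1 and LATS2, which have few peaks, carry little weight.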
